A study of Mus musculus with 2 samples.

Results

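Opposite ends of the conventional type 1 dendritic cell (cDC1) population were compared: 745 cells with P3h2 or Cyp26b1 RNA and no Ccr2 RNA, and 41 cells with Ccr2 RNA and neither of the others. They were chosen by how many unique molecular identifiers (UMIs, each standing for a captured RNA molecule) they held, in 3 replicates, marked by hashtags 6, 8 and 9. A cDC1 was a cell with at least 3 UMIs of Xcr1 and Clec9a together, more than its UMIs of Sirpa, and at most 1 UMI of Fscn1. Of 10503 cells of these replicates that passed the filters, 1372 met this gate, and 15480 cells passed over all 6 replicates. The first side needed at least 2 UMIs of Cyp26b1 and P3h2 together and 0 of Ccr2, and the second side at least 2 UMIs of Ccr2 and 0 of the others. Both sides together held 786 of the 1372 gated cells. Of the 745 cells of the first side, 730 had at least 2 UMIs of P3h2 alone, 338 (45.4%) had any Cyp26b1 UMI, and 2 had Cyp26b1 without P3h2. The first side is therefore called the P3h2-positive side here, and the other the Ccr2-positive side.

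The cDC1 lineage takes up material from dying cells and presents it to CD8 T cells, and its identity rests on the transcription factors IRF8 and BATF3. P3h2 encodes a prolyl 3-hydroxylase that modifies collagen chains, and Cyp26b1 encodes an enzyme that breaks down retinoic acid, the vitamin A product that intestinal dendritic cells can make and that shapes gut homing and tolerance. Ccr2 encodes a chemokine receptor best known for guiding monocytes and precursor cells out of the blood. Cd24a and Rab7b, a glycoprotein gene and a gene of a late endosomal GTPase, were also proposed as markers of these cells.

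Dendritic cells (DCs), gated by sorting as CD3-B220-CD11c+MHC-II+, came from mesenteric lymph nodes (mLN) and small-intestinal lamina propria (siLP) of untreated Gm38411-iCre-hCD2 reporter mice aged 15 days. All groups share this genotype, age and lack of treatment. Each of 6 biological replicates, 3 per tissue, carried its own hashtag antibody, and all were run as 1 pool, which gave 1 RNA library (Chromium 3′ v3) and 1 hashtag library. No label ties a hashtag to a tissue, so no tissue is named for any cell here. The gate held 561, 252 and 559 cells in hashtags 6, 8 and 9, with medians of 18624, 17880.5 and 18796 UMIs per cell. It held 777 cells in hashtags 2, 4 and 5, with medians of 10249, 10598.5 and 12264.5 UMIs. The reporter gene and its hCD2 tag gave 4 and 10 UMIs in the gated cells, and were not studied further.

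The P3h2-positive side was the common state of these 3 replicates and the Ccr2-positive side a rare one. The former made up 50.4%, 60.3% and 55.5% of gated cDC1 in hashtags 6, 8 and 9 (283, 152 and 310 cells). The latter made up 3.21%, 4.76% and 1.97% (18, 12 and 11 cells), with Wilson 95% intervals, which cover counting error only, of 2.04% to 5.01%, 2.74% to 8.14% and 1.10% to 3.49%. The sides were not separate islands: 287 gated cells had at least 2 UMIs of both kinds, 56 had none of either, and 243 lay between the thresholds. Most cells with at least 2 Ccr2 UMIs were thus in the doubly positive class and not on the Ccr2-positive side. In hashtags 2, 4 and 5, which the rule did not name, the same thresholds put 175 cells on the P3h2-positive side and 89 on the Ccr2-positive side, or 22.5% and 11.5% of the gated cells. With all cells thinned to 5000 UMIs the P3h2-positive side took 59.9%, 70.4% and 62.0% of the first 3 replicates and 19.8%, 21.8% and 24.6% of the others. These shares follow from the thresholds and were not tested.

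**Figure D1:**
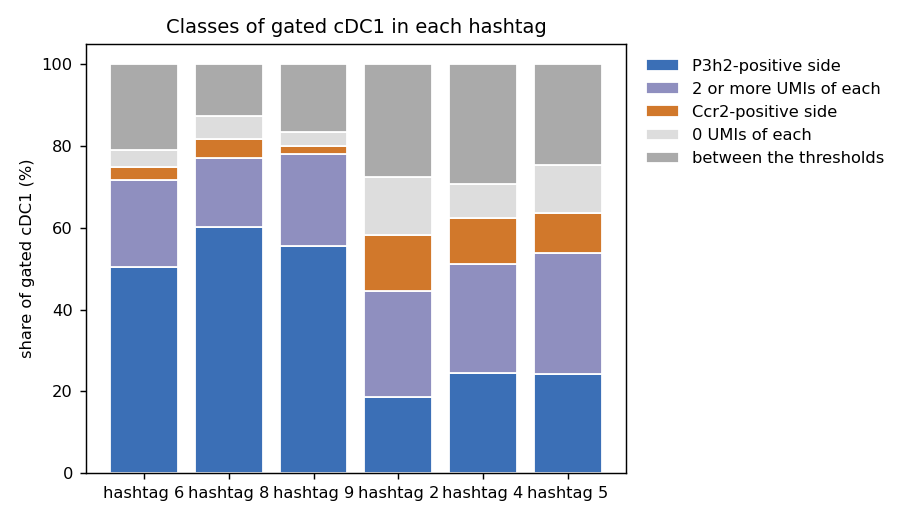
Share of gated cDC1 (percent, stacked to the whole) in each of 5 classes, for each hashtag. The P3h2-positive side takes 50.4% to 60.3% in hashtags 6, 8 and 9, where the Ccr2-positive side takes 1.97% to 4.76%.

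Detection of the rule's own genes was compared after each cell had been thinned to 5000 UMIs, which left out the 63 shallower of the 1372 cells. Cyp26b1 was found in 19.3% of thinned cDC1 of hashtags 6, 8 and 9 (34.3% before thinning), and P3h2 in 79.3% (90.9%). Cells gated as cDC2, another DC lineage that served as the background, gave 0.161% and 2.33% for the same genes, at a median of 13927 UMIs against 18498.5 in cDC1. Ccr2 was found in 21.7% of thinned cDC1 against 2.81% of cDC2-gated cells. In hashtags 2, 4 and 5 Cyp26b1 was found in 0.595% of thinned cDC1, with an interval of 0.232% to 1.52%, against 61.2% for P3h2 and 45.8% for Ccr2. Ccr2 was found in 21.7%, 14.1% and 18.6% of thinned cells with P3h2 or Cyp26b1 in hashtags 6, 8 and 9, and in 37.3%, 31.6% and 29.8% of those without. In hashtags 2, 4 and 5 these pairs were 43.8% against 44.7%, 48.9% against 52.1%, and 44.2% against 43.0%. These shares are a description without a test.

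On the P3h2-positive side the summed level of P3h2, as counts scaled to a common library total (CPM), was 1142, 1189 and 1172 in hashtags 6, 8 and 9, and that of Cyp26b1 86.7, 86.9 and 101 CPM. On the Ccr2-positive side Ccr2 stood at 312, 224 and 302.1 CPM. These levels chose the cells and are given without a test, as are Xcr1 (394, 366 and 355 against 199.7, 257 and 191 CPM) and Clec9a (485, 509 and 465 against 349, 338 and 274 CPM). Both gate genes were higher on the P3h2-positive side in each replicate. Xcr1 encodes the chemokine receptor, and Clec9a the dead-cell receptor, by which cDC1 are defined. Cells just outside and just inside the thresholds were few: with no Ccr2, 43 cells held 1 and 40 held 2 UMIs of P3h2 and Cyp26b1, and with neither of these, 16 cells held 1 and 10 held 2 UMIs of Ccr2. The cytoskeletal gene Vim stood at 367 and 472 CPM in the first pair and at 759 and 719.6 CPM in the second. At the gate itself, 71 cells had 3 UMIs of Xcr1 and Clec9a, and 113 cells otherwise gated had 2.

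Among the proposed markers, Cd24a and Rab7b did not pass the test between the sides. Cd24a stood at 105, 105 and 105 CPM on the P3h2-positive side and at 168, 181 and 149 CPM on the Ccr2-positive side, without overlap. Its log2 fold change (P3h2-positive minus Ccr2-positive, as throughout, ± standard error) was -0.53 ± 0.18. Its adjusted p was 0.0953 in edgeR's quasi-likelihood test, so it missed the threshold of 0.05. Each standard error was derived from the F statistic of that test, which shares information on variability across genes. It is not the spread of the 3 hashtags, which can be wider. In hashtags 2, 4 and 5 Cd24a had a log2 fold change of -1.07 ± 0.18 (edgeR adjusted p = 1.11e-05), past the threshold. Rab7b gave 251, 259 and 272 against 315, 281 and 302.1 CPM, a log2 fold change of -0.071 ± 0.15 (edgeR adjusted p = 0.831). In hashtags 2, 4 and 5 Rab7b was called higher on the P3h2-positive side, at 283, 306 and 299 against 244, 232 and 174 CPM. Its log2 fold change there was 0.46 ± 0.16 (edgeR adjusted p = 0.0256), and the difference between the 2 sets was not called (edgeR adjusted p = 0.38). With the first side chosen by Cyp26b1 alone, as the working name has it, 235 cells with at least 2 Cyp26b1 UMIs faced 289 Ccr2-positive cells, most of them with P3h2. In that contrast Cd24a had a log2 fold change of -0.86 (edgeR adjusted p = 0.000103) and Rab7b of -0.0057 (edgeR adjusted p = 0.973).

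Across all genes, 777 of 8127 tested genes differed between the sides in hashtags 6, 8 and 9 (9.56%), of which 486 were higher (5.98%) and 291 lower (3.58%) on the P3h2-positive side. The test compared raw UMIs summed per side and hashtag, with each hashtag as its own block, an adjusted p under 0.05, and the 7 genes of the rule left out. With 3 pairs it had 2 residual degrees of freedom, and the Ccr2-positive sums rest on 210226 to 320550 UMIs against 2783819 to 6028888 on the P3h2-positive side. The median log2 fold change of all tested genes was 0.024. The CPM of the sides did not overlap for 35.9% of tested genes. CPM here leave out the scaling factors (TMM) that the test used. These were 0.948 to 0.967 for the P3h2-positive sums and 1.035 to 1.066 for the Ccr2-positive sums. The test therefore places the P3h2-positive side somewhat higher, relative to the other, than the printed CPM do. Leaving out hashtag 9 gave 353 called genes, with 228 higher and 125 lower.

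Several RNA measures moved with the sides. Malat1, a nuclear non-coding RNA, made up a median of 4.22%, 4.49% and 3.91% of a cell's UMIs on the P3h2-positive side and 1.51%, 1.53% and 1.17% on the Ccr2-positive side. The nuclear RNAs Malat1 and Neat1 had log2 fold changes of 1.74 ± 0.057 and 0.96 ± 0.16 (edgeR adjusted p = 2.47e-09 and 0.00274), and the housekeeping RNAs Gapdh and Ppia of -0.94 ± 0.12 and -0.84 ± 0.085 (edgeR adjusted p = 0.000577 and 7.85e-05). By gene length, the longest of 4 equal bins of tested genes had a median of 0.29 with 270 higher and 24 lower calls. The shortest bin had a median of -0.17 with 72 higher and 143 lower calls. Among cells with at most 2.5% Malat1 (167 against 38 cells), 62 of 4995 genes were called, 40 higher and 22 lower, and 61 of these were among the 777. With as many cells on each side (41 and 41) 255 of 3371 genes were called. The part of RNA quality in the results below was not tested, and the counts at low Malat1 stand beside the larger lists.

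cDC1 identity genes were in part higher on the P3h2-positive side. Of 21 tested members of this list 8 rose, 1 fell and 12 did not pass, beside 5.98% of all tested genes called higher and 3.58% called lower. Their median log2 fold change was 0.42, beside 0.024 over all genes, and these shares are the background of each list that follows. Cadm1, an adhesion molecule of cDC1, stood at 1757, 1793 and 1611 CPM on the P3h2-positive side and at 749, 561 and 962 CPM on the Ccr2-positive side. The replicates of the sides did not overlap, and Cadm1 rose by 1.33 ± 0.14 (edgeR adjusted p = 0.0001). Itgae, the CD103 integrin chain of intestinal DCs, gave 266, 283 and 275 against 31.2, 128 and 93.0 CPM. It rose by 1.96 ± 0.27 (edgeR adjusted p = 0.000939), with hashtag 6 of the Ccr2-positive side far below the other two. Cd8a, which marks the lymphoid-organ cDC1, gave 47.2, 49.2 and 45.8 against 0, 14.3 and 18.6 CPM, with a log2 fold change of 2.44 ± 0.53 (edgeR adjusted p = 0.0127) that rests on 7 UMIs of the Ccr2-positive side. Bcl6, Wdfy4 (needed for cross-presentation), Ppt1, Btla and Plpp1 rose by 0.77, 0.54, 0.84, 0.84 and 0.89.

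The core regulators Irf8 and Batf3 did not pass the test. Irf8 stood at 1169, 1091 and 1091 CPM on the P3h2-positive side and at 1095, 1094 and 1236 CPM on the Ccr2-positive side, ranges that overlap, with a log2 fold change of 0.10 ± 0.096 (edgeR adjusted p = 0.57). Batf3 gave 121, 114 and 111 against 153, 128 and 130.1 CPM and -0.13 ± 0.19 (edgeR adjusted p = 0.749). The double-stranded RNA sensor Tlr3 and the growth factor receptor Flt3 had log2 fold changes of 0.025 ± 0.19 and 0.20 ± 0.19, and the chemokine receptor Cxcr3 of -0.48 ± 0.35 (edgeR adjusted p = 0.957, 0.58 and 0.461). Id2, the inhibitor of E proteins that all cDC1 need, fell by 0.58 (edgeR adjusted p = 0.02). At low Malat1, 2 of 21 tested list members rose, beside 40 of 4995 genes called higher in all. Leaving out cycling cells left 3 of 21, beside 315 of 7731 genes.

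Several genes outside the identity list differed more. Apol7c, an apolipoprotein L family gene, stood at 215, 198 and 222 CPM on the P3h2-positive side and at 6.24, 4.76 and 18.6 CPM on the Ccr2-positive side. The sides were far apart in every replicate, and Apol7c rose by 4.62 ± 0.34 (edgeR adjusted p = 1.07e-05). Dnase1l3, a secreted DNase that clears DNA of dead cells, gave 389, 403 and 448 against 56.2, 33.3 and 55.8 CPM. Its log2 fold change was 3.19 ± 0.21 (edgeR adjusted p = 5.59e-06), again with no overlap. Serpinb6b, a serpin gene, gave 234, 270.1 and 292 against 12.5, 71.4 and 18.6 CPM, and Cacna1e, a calcium channel subunit, 178, 217 and 153 against 43.7, 19.0 and 4.65 CPM. They rose by 3.21 ± 0.34 and 3.01 ± 0.35 (edgeR adjusted p = 0.0001 and 0.000229). Rnf180, Arhgap42 and Stk39 rose by 2.92, 2.72 and 2.95, and Esyt3 and Ptgis, with 3 UMIs each on the Ccr2-positive side, by 3.67 and 3.26, the latter not called without hashtag 9. Chsy3 rose by 2.86 but stood at -0.29 in the contrast by Cyp26b1 alone.

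**Figure D2:**
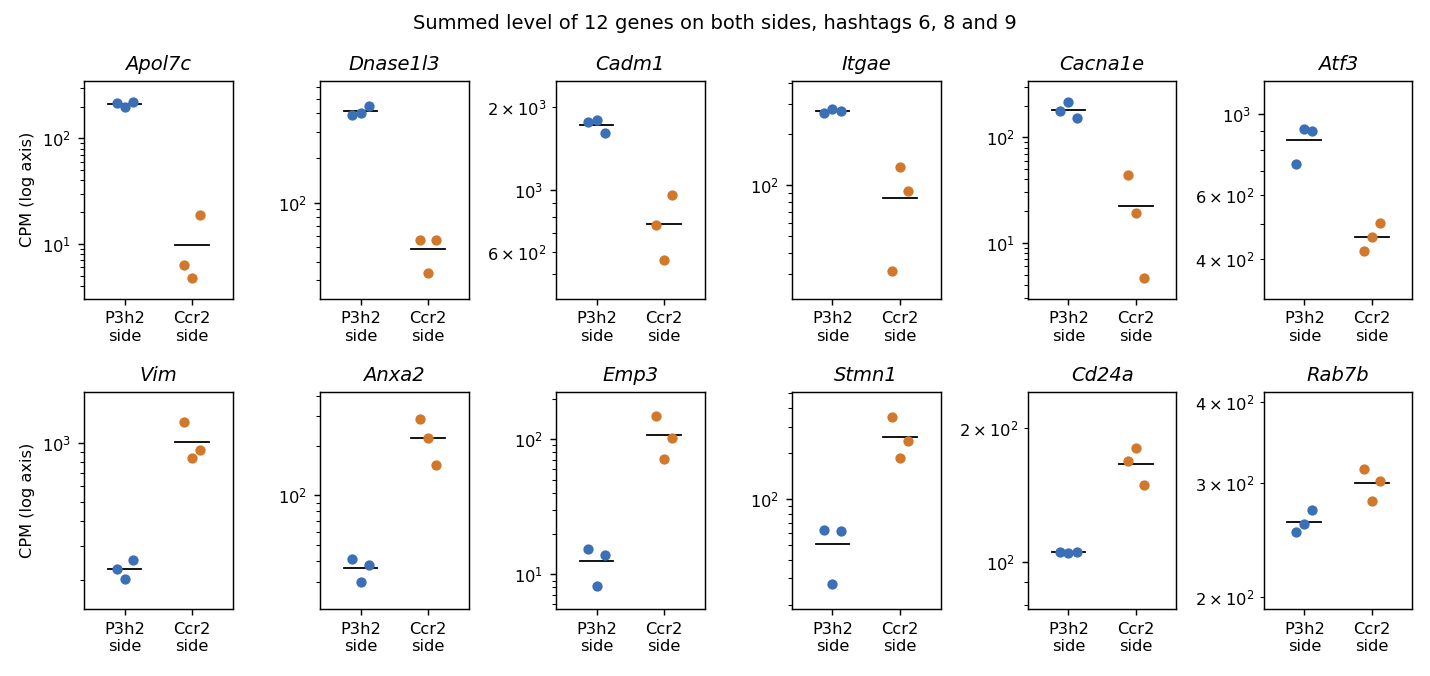
Summed level (CPM, log axis) of 12 genes on the P3h2-positive side (blue) and the Ccr2-positive side (orange), with 1 point per hashtag (6, 8 and 9) and the mean as a line. In these CPM, which leave out the scaling factors of the test, the sides do not overlap for any of the 12. With those factors Rab7b overlaps, and Cd24a and Rab7b did not pass the test.

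Some genes for uptake of dead cells and for sensing microbes were higher as well. Of 6 tested genes of uptake and scavenging 4 rose and none fell (median 0.65), and of 14 Toll-like receptor and adaptor genes 3 rose and none fell (median 0.15), beside 5.98% of all tested genes called higher. Havcr2, the TIM-3 receptor, rose by 0.82, the scavenger receptor gene Cd36 by 1.31, Ly75, the DEC-205 uptake receptor, by 1.53 and Elmo1, an engulfment adaptor, by 0.48. Cd36 stood at 332, 395 and 427 CPM on the P3h2-positive side and at 215, 133 and 149 CPM on the Ccr2-positive side. Tlr11 and Tlr12, the mouse receptors for parasite profilin, gave 45.3, 46.0 and 38.6 against 15.6, 19.0 and 13.9 CPM and 57.9, 60.7 and 54.2 against 21.8, 23.8 and 9.30 CPM. They rose by 1.56 ± 0.36 and 1.76 ± 0.35 (edgeR adjusted p = 0.0169 and 0.00809), but Tlr11 lost its call in 8 of 19 alternatives, among them DESeq2 and leaving out hashtag 6 or 9, and Tlr12 in 5 of 20, among them leaving out hashtag 9. Cd14, the lipopolysaccharide co-receptor, gave 21.6, 35.9 and 31.7 against 3.12, 0 and 0 CPM and a log2 fold change of 4.49 ± 0.79 (edgeR adjusted p = 0.00391) that rests on 1 UMI of the Ccr2-positive side.

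Cyp26b1 breaks down retinoic acid, and other genes of its handling were listed beside it. Of these 22 genes 9 were high enough to be tested, 2 rose and none fell, with a median of 0.47. Aldh1a2, the enzyme that makes retinoic acid, stood at 17.6, 21.6 and 20.7 CPM on the P3h2-positive side and at 3.12, 4.76 and 4.65 CPM on the Ccr2-positive side, where each replicate held 1 UMI. It rose by 2.40 ± 0.61 (edgeR adjusted p = 0.0268), a call that was lost on leaving out any 1 hashtag. Ncoa3, a coactivator of nuclear receptors, rose by 1.07 ± 0.20 (edgeR adjusted p = 0.00557). Ccr9, the gut-homing receptor whose gene retinoic acid can induce in T cells, gave 112, 124 and 89.9 against 12.5, 19.0 and 32.5 CPM. It rose by 2.54 ± 0.34 (edgeR adjusted p = 0.000656), with no overlap between the sides, and plasmacytoid DCs, which the B220- sort should remove, also carry it. Itga4, a subunit of the gut-homing integrin, rose by 0.50, while its partner Itgb7 fell by 0.97 and Itgal, the LFA-1 chain, fell by 1.49. Itgb7 was not called without hashtag 6. Itgal stood at 24.5, 27.3 and 23.2 CPM against 78.0, 119 and 41.8 CPM (edgeR adjusted p = 0.00739).

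TGF-beta and matrix genes split. Of 14 tested integrin and TGF-beta genes 3 rose (Itgae, Tgfbr2 and the SMAD inhibitor Skil) and 3 fell (Itgb7, Tgfbi and Smad3), with a median of 0.35, beside 5.98% and 3.58% of all tested genes called higher and lower. Tgfbi went the other way in hashtags 2, 4 and 5, where it was called higher on the P3h2-positive side. Tgfbr2 lost its call in 11 of 20 alternatives, among them leaving out hashtag 6 or 9. Smad3, a signal carrier of TGF-beta, gave 19.5, 15.4 and 22.4 against 93.6, 66.6 and 121 CPM and fell by 2.15 (± 0.26, edgeR adjusted p = 0.000293). Itgb8, which activates TGF-beta, was too low for the test, with 14 UMIs over the P3h2-positive side and 0 on the other. Of 7 tested genes of collagen modification and matrix, Adam23, Adam19 and Mmp12 rose by 2.19, 0.75 and 1.19. Mmp12 lost its call in 11 of 18 alternatives, among them leaving out hashtag 6 or 9, and Adam19 in 7 of 20, among them leaving out hashtag 6 or 8. Adam23, a surface protein of the metalloprotease family, stood at 155, 168 and 168 CPM against 21.8, 23.8 and 79.0 CPM.

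Maturation and inflammatory genes moved in part. Of 19 tested maturation genes 4 rose and none fell (median 0.69), beside 5.98% of all tested genes called higher: Cd86, a co-stimulatory ligand, by 0.69, the checkpoint ligand Cd274 by 2.29, the scavenging chemokine Cxcl16 by 0.87 and the lymph node homing receptor Ccr7 by 1.88. Cxcl16 was not called without hashtag 9. Ccr7 rests on 8 UMIs of the Ccr2-positive side and on single cells that held 42 of 174, 22 of 108 and 36 of 222 UMIs on the other, and it was no longer called without hashtag 9. Cd274 gave 89.6, 105 and 128 against 40.6, 0 and 23.2 CPM (edgeR adjusted p = 0.00607). Of 11 tested cytokines and chemokines 2 rose, the neutrophil attractant Cxcl2 by 2.98 and the T cell attractant Cxcl9 by 2.68, and 2 fell, Ccl3 (-0.94) and Ccl6 (-2.01, not called without hashtag 6). Cxcl9 gave 94.97, 88.4 and 123 against 6.24, 9.51 and 41.8 CPM, and 1 cell held 151 of the 497 UMIs of hashtag 6.

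Few antigen presentation genes passed the test. Of 23 tested genes of MHC class I and cross-presentation none rose and 1 fell, the immunoproteasome subunit Psmb8, which stood at 353, 308.6 and 323 against 655, 580.3 and 604 CPM (-0.77 ± 0.12, edgeR adjusted p = 0.00213). Of 14 genes of MHC class II presentation 2 rose, Ciita, the master regulator of the class, by 1.02 and H2-Eb1 by 0.25. The medians of the lists were -0.033 and 0.16, beside 0.024 over all tested genes. More class I genes were called in hashtags 2, 4 and 5, where 7 of 23 fell and Nlrc5 rose (median -0.22). The 7 were Psmb8, Psmb9, Psmb10, Calr, Pdia3, Cyba and Rac2, beside 12.5% of all tested genes called lower there. Of 14 class II genes H2-Ob and Ciita rose there, and H2-DMa and Ifi30 fell. The values that follow are those of hashtags 6, 8 and 9. H2-Eb1 stood at 6495, 6372 and 6592 CPM against 5643, 6269 and 6033 CPM and lost its call whichever hashtag was left out, and Ciita lost it without hashtag 6 or 9. Of 17 tested genes of sterol synthesis and cholesterol handling 3 rose, Apol7c, Soat1 (by 1.16, not called without hashtag 6 or 9) and the lipid carrier Apoe (by 2.87), and none of the synthesis enzymes was called. Apoe gave 50.8, 87.3 and 117 against 9.36, 9.51 and 18.6 CPM, with 237 of the 706 UMIs of hashtag 9 in 1 cell, and macrophages also express it.

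Early response genes were in part higher on the P3h2-positive side. Of 22 tested members 10 rose and none fell, with a median of 0.64. Atf3, a stress-induced factor, stood at 729.9, 914 and 901 CPM on the P3h2-positive side and at 421, 461 and 502 CPM on the Ccr2-positive side. It rose by 1.006 ± 0.12 (edgeR adjusted p = 0.000225), without overlap. Egr1, Jun, Fosb, Dusp1 and Junb rose by 1.07, 1.02, 0.996, 0.99 and 0.86, Nr4a3, Nr4a2, Jund and Zfp36 by 0.85, 0.59, 0.45 and 0.41, and Fos had a log2 fold change of 0.11 ± 0.095 (edgeR adjusted p = 0.558). The heat shock gene Hspa1a, also on the list, stood at 0.21 ± 0.27 (edgeR adjusted p = 0.692). These genes can be induced while tissue is digested and cells are sorted, and their part in the result was not tested. At low Malat1 3 members rose. Klf2 and Klf4, from the list of early dendritic precursor genes, rose by 0.92 and 0.87, the others of its 11 tested genes being uncalled. Klf4 lost its call in 10 of 20 alternatives, among them DESeq2 and leaving out hashtag 9, and reversed in 1. Klf2 lost its call in 4 of 20, among them low Malat1 and equal cell numbers.

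Cell cycle genes were lower on the P3h2-positive side. Of 25 tested members none rose and 16 fell, with a median log2 fold change of -1.51. Stmn1, which destabilizes microtubules in dividing cells, stood at 62.9, 27.7 and 61.7 CPM on the P3h2-positive side and at 346, 186 and 242 CPM on the Ccr2-positive side. Every Ccr2-positive replicate was above every P3h2-positive one, and Stmn1 fell by 2.24 (± 0.20, edgeR adjusted p = 5.10e-05). Of the helicase loaded at replication origins, Mcm7, Mcm5, Mcm6, Mcm3 and Mcm2 fell, with log2 fold changes of -1.91, -1.77, -1.75, -1.65 and -1.51. Among mitotic genes, Cdc20, Ccnb2, Birc5 and Cenpa fell, with log2 fold changes of -2.71, -2.45, -2.09 and -1.92, and outside the list Ckap2l, Cdca8 and Tpx2 had -2.71, -2.20 and -2.17. Ccnb2, Cdca8 and Tpx2 were not called without hashtag 9, nor Ckap2l without hashtag 6. Cdc20 gave 3.63, 4.67 and 2.65 against 24.96, 19.0 and 32.5 CPM, and on the Ccr2-positive side 1 cell held 7 of 8, 4 of 4 and 6 of 7 of its UMIs. Cycling cells, those with at least 2 UMIs of Mki67, Top2a, Cdk1, Ccnb1, Rrm2 and Birc5 together, made up 17.0%, 13.8% and 17.7% of the P3h2-positive side and 22.2%, 33.3% and 45.5% of the Ccr2-positive side. Without those cells 3 of 16 tested list members fell (median -1.24), beside 112 of 7731 genes called lower in all. Those cells were removed by genes of the list itself, so part of this loss of calls was built in. Without hashtag 9, 7 of 25 members fell (median -1.49). At low Malat1 1 of 18 fell (median -0.69), beside 22 of 4995 genes in all. With equal cell numbers 2 of 14 fell (median -0.74), beside 80 of 3371 genes.

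Ribosome biogenesis moved the same way on a smaller scale. Of 20 tested genes none rose and 6 fell, with a median of -0.71: Dkc1, Nop56 and Nop58, which make up small nucleolar particles, with -1.19, -1.13 and -1.11, and Ncl, Fbl and Npm1 with -0.79, -0.72 and -0.48. Nop58 stood at 77.4, 59.6 and 72.7 CPM on the P3h2-positive side and at 172, 147 and 177 CPM on the Ccr2-positive side. Dkc1 was not called without hashtag 8 or 9, nor Nop56 without hashtag 6 or 9. Without cycling cells edgeR called 1 of 19 tested list members (median -0.47). At low Malat1 it called 0 of 15 (median -0.40), where 62 genes were called in all.

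The promoters of the called cell cycle and early response genes are shown for a few members, since the called members of each list changed in the same direction. The windows, from RefSeq on GRCm38.p6, run from 250 bases before to 50 bases after the start. Of the 16 called cell cycle genes 14 matched the table (Stmn1 and Ccna2 did not), and of the 10 early response genes 9 were searched. Motifs were searched on both strands: the E2F site as TTTGGCGC, TTTCCCGC, TTTGCCGC or TTTCGCGC, the cell cycle homology region (CHR) as TTTGAA, the CCAAT box as CCAAT, and the core of the cyclic AMP element as TGACG, which is also part of the full element TGACGTCA. An E2F site was found in the window of 4 of 14 genes (Mcm3, Mcm5, Mcm6 and Mcm7), against 2.6% of all 27025 genes in the table. A CHR was found in 7 (Ccnb2, Cdc20, Cenpa, Hmgb2, Mcm2, Mki67 and Ube2c), against 20.2%, and a CCAAT box in 13, against 41.1%. The core was found in 6 of 9 early response genes (Atf3, Dusp1, Fosb, Junb, Nr4a2 and Nr4a3), against 23% of genes, and the full element in Dusp1, against 2.03%. A match is a description of the letters and no evidence of binding. Only called members of these lists were searched, and not the uncalled ones. The shares therefore cannot tie a motif to the difference between the sides. Capitals mark the E2F sites in Mcm3 (chr1:20820263-20820562, minus strand) and Mcm6 (chr1:128359656-128359955, minus strand), where 2 of the matches overlap, CHR and CCAAT boxes in Ccnb2 (chr9:70421505-70421804, minus strand) and Cdc20 (chr4:118437294-118437593, minus strand), and cores in Atf3 (chr1:191183284-191183583, minus strand) and Dusp1 (chr17:26508423-26508722, minus strand), where 2 cores overlap in the full element.
Mcm3: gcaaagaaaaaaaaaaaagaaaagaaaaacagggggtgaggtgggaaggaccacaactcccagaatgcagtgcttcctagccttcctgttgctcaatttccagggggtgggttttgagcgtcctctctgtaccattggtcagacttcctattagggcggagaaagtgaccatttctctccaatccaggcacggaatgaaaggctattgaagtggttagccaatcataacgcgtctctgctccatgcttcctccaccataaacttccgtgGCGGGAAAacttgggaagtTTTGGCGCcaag
Mcm6: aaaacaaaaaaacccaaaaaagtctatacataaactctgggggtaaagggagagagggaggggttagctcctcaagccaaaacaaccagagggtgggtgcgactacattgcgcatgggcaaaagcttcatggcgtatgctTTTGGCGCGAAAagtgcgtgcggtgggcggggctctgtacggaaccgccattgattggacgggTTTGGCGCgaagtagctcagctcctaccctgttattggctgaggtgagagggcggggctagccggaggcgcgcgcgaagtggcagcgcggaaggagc
Ccnb2: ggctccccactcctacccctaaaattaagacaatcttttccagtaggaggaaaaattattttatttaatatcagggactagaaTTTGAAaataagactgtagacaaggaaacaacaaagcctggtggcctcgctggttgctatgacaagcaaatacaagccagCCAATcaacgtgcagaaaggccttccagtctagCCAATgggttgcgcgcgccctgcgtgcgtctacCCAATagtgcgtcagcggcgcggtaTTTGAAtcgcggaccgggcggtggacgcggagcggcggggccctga
Cdc20: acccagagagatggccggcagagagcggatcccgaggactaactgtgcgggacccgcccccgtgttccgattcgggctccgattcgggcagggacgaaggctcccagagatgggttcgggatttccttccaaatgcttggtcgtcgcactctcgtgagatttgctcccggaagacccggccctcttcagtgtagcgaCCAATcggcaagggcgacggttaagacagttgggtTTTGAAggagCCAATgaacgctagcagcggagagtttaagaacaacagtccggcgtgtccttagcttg
Atf3: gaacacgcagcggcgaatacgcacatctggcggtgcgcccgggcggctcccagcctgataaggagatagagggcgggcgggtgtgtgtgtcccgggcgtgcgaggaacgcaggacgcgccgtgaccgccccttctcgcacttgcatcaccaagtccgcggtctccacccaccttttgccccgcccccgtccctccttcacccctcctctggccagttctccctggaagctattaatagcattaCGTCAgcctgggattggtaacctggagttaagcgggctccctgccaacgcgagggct
Dusp1: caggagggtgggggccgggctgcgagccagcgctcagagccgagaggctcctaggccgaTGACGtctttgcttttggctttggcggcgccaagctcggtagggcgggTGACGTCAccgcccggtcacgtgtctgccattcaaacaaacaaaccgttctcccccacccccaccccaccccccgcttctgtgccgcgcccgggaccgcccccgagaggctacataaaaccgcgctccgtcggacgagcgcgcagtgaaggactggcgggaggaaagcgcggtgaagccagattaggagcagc

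Genes of the actin cytoskeleton and of migration were lower on the P3h2-positive side. Of 21 tested members none rose and 14 fell, with a median of -0.54. Vim, the intermediate filament of motile cells, stood at 227, 202 and 252 CPM on the P3h2-positive side and at 1276, 832 and 916 CPM on the Ccr2-positive side. It fell by 2.01 (± 0.14, edgeR adjusted p = 1.07e-05), with no overlap. Anxa2, a membrane-binding annexin, gave 41.3, 29.8 and 38.1 against 290.1, 224 and 153 CPM, and its partner S100a10 20.3, 14.7 and 22.1 against 249.6, 128 and 116 CPM. They fell, with log2 fold changes of -2.46 and -2.97 (edgeR adjusted p = 5.50e-05 and 5.56e-05). Emp3, a membrane protein gene, gave 15.5, 8.26 and 13.9 against 149.7, 71.4 and 102 CPM and fell by 2.96 (± 0.27, edgeR adjusted p = 5.10e-05). Ahnak, a large scaffold protein, and S100a6 fell, with log2 fold changes of -2.96 and -3.32, although 1 Ccr2-positive cell held 17 of the 20 S100a6 UMIs of hashtag 8 and another 24 of 40 in hashtag 9. Lgals1, S100a4 and Crip1 fell, with log2 fold changes of -1.78, -1.72 and -1.07, and the abundant Actb, Tmsb10, Cfl1, Pfn1 and Coro1a had -0.25, -0.46, -0.54, -0.50 and -0.76. At low Malat1 10 of 21 tested members fell, beside 22 of 4995 genes called lower in all. The same limit in hashtags 2, 4 and 5 gave 2 of 21, beside 14 of 4486 genes. Without cycling cells 12 of 21 fell, beside 112 of 7731 genes. With cells thinned before the rule 6 of 18 fell, beside 32 of 4083 genes. Thinning in hashtags 2, 4 and 5 gave 10 of 19, beside 63 of 2523 genes.

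Outside the lists, Cd226, an activating receptor, stood at 3.82, 0.718 and 4.48 against 24.96, 47.6 and 46.5 CPM. It fell by 3.47 (± 0.56, edgeR adjusted p = 0.00242), from 49 UMIs over the P3h2-positive side and 28 over the Ccr2-positive side. Lmo1, Xylt1 and Nrp1, a co-receptor of semaphorins, fell, with log2 fold changes of -2.42, -2.21 and -2.17, each from 28 to 37 UMIs on the Ccr2-positive side, and were not called without hashtag 6 (Lmo1 and Nrp1) or 9 (Xylt1).

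**Figure D3:**
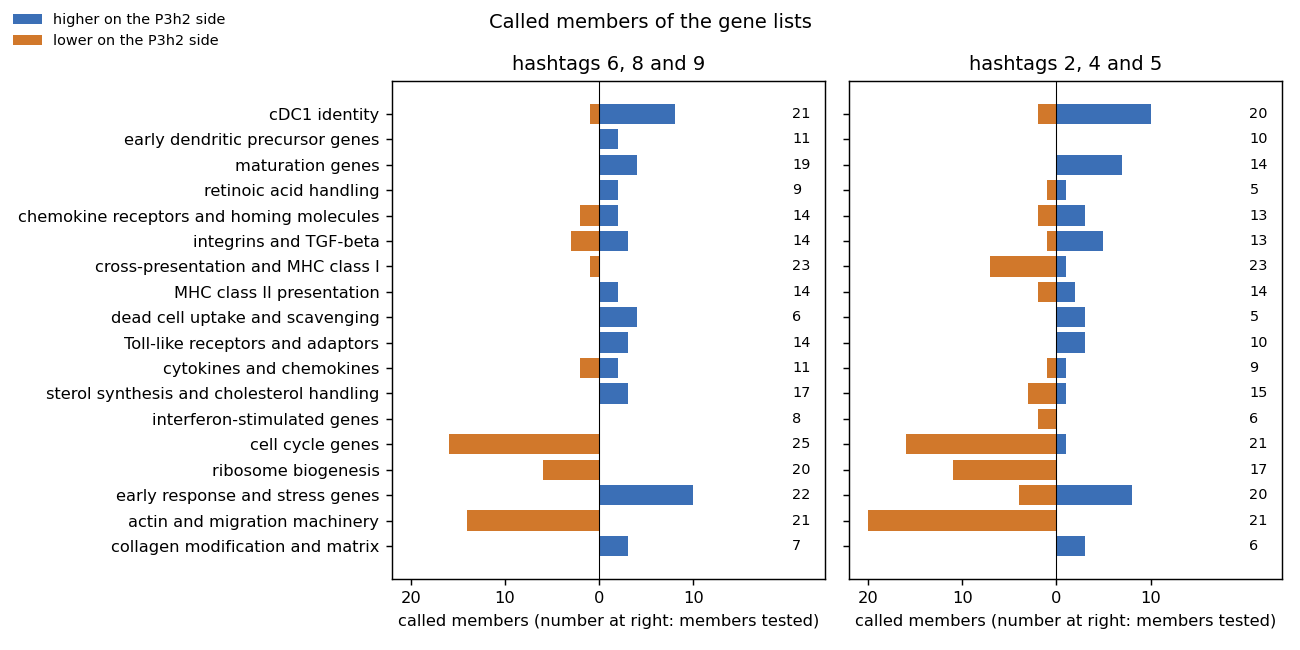
Number of called members higher (blue, to the right) or lower (orange, to the left) on the P3h2-positive side in 18 gene lists, with the number tested at the right edge, for hashtags 6, 8 and 9 and for hashtags 2, 4 and 5. In both sets 16 cell cycle genes are lower, and 14 and 20 actin and migration genes, beside 3.58% and 12.5% of all tested genes called lower.

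Markers of other cells were found on both sides, and their part in the results was not tested. The 14 macrophage and monocyte markers summed to 433 to 535 CPM over the P3h2-positive replicates and 265 to 338 CPM over the Ccr2-positive ones, with F13a1 at 0 on the former and F13a1, Pf4 and Fcgr1 at 0 on the latter. Lyz2 and Apoe of this list rose, by 0.77 and 2.87, and Lyz2 was not called without hashtag 9. The 12 epithelial markers summed to 59.2 to 75.4 against 4.65 to 19.0 CPM, with Reg3g at 0 on the P3h2-positive side and 10 of 12 at 0 on the other. Fabp2, of enterocytes, gave 19.3, 25.9 and 21.6 CPM against 0 UMIs, at least 5.36-fold higher over the summed replicates (with a floor of 3 UMIs over the Ccr2-positive side), and single cells held 55 of 101, 40 of 72 and 70 of 130 of its UMIs. The 9 plasmacytoid DC markers summed to 242 to 265 against 109 to 228 CPM, with Siglech at 0 on the Ccr2-positive side. The 12 cDC2 markers summed to 148 to 221 against 97.6 to 421 CPM, the 10 B and plasma cell markers to 84.8 to 102 against 81.1 to 99.9 CPM, and the T and innate lymphoid, granulocyte and RORgt+ DC lists to at most 12.6 CPM on either side. Stroma and vessel markers summed to 14.1 to 19.4 against 23.2 to 31.2 CPM. Hbb-bs, a globin gene, rose by 5.29, but 1 cell held 4157 of the 4197 UMIs of hashtag 8, and it was not called without that hashtag. Cells with at least 2 UMIs together of 14 such markers (among them C1qa, Cd209a, Cd79a, Cd3e, Siglech and Epcam) made up 22.3%, 25% and 26.8% of the P3h2-positive side and 11.1%, 16.7% and 0% of the Ccr2-positive side. Without them 535 genes were called.

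The doubly positive cells lay between the sides for most of these genes. Vim stood at 656, 680.4 and 779.9 CPM in them, Anxa2 at 164, 159 and 179 CPM, Cadm1 at 1179, 1154 and 1179 CPM and Dnase1l3 at 114, 137 and 167 CPM in hashtags 6, 8 and 9. Each of these lies between the ranges of the 2 sides given above, except that Anxa2 overlaps the Ccr2-positive range. Cd24a, at 186, 179 and 206 CPM, did not fall between them and reached the level of the Ccr2-positive side or more. The 56 cells with no UMI of either kind differed between genes: Cadm1, at 492, 666 and 468 CPM, overlapped the Ccr2-positive side, while Apol7c, at 119, 172 and 185 CPM, was closer to the P3h2-positive side. Cd274 stood at 266, 482 and 437 CPM in these cells, above both sides. They held medians of 14251, 9926.5 and 12697 UMIs, fewer than the others, and other-cell markers in 30.4%, 42.9% and 57.9% of them. These are levels of cells chosen by the rule's genes and were not tested.

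**Figure D4:**
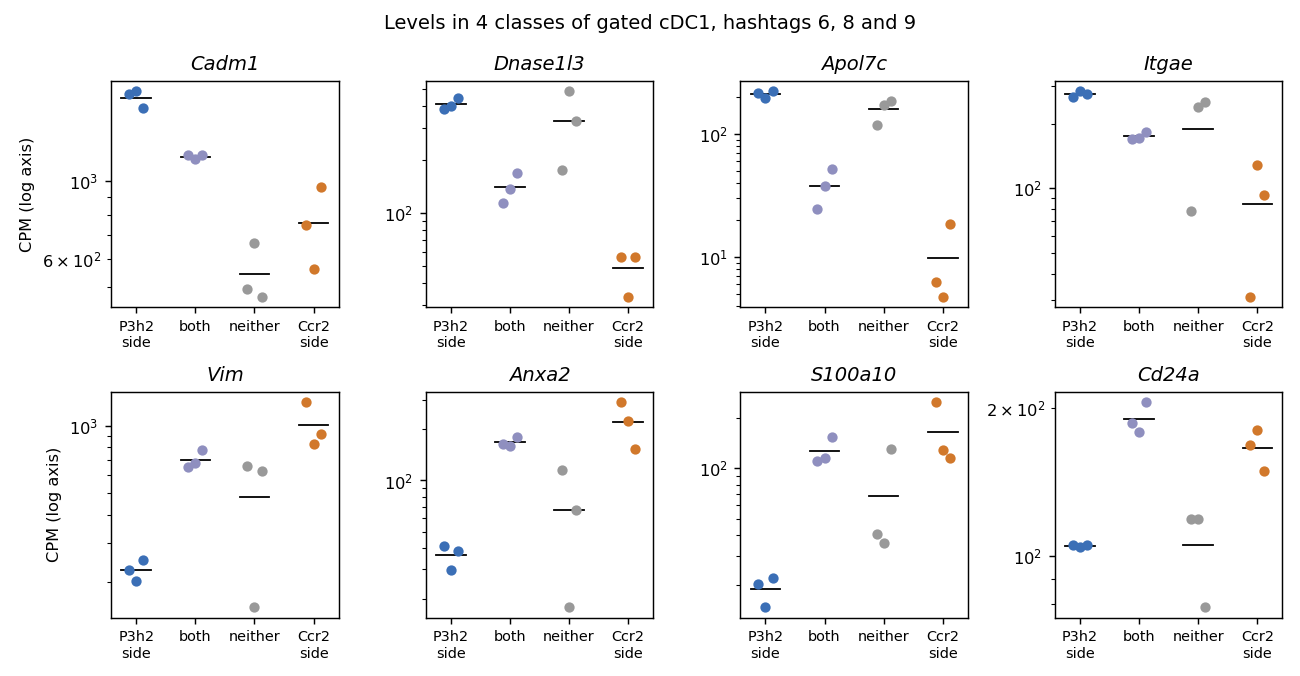
Summed level (CPM, log axis) of 8 genes in the P3h2-positive side, cells with at least 2 UMIs of both kinds, cells with 0 UMIs of either, and the Ccr2-positive side, with 1 point per hashtag (6, 8 and 9) and the mean as a line. Cells positive for both lie between the sides for Vim and Cadm1, with Vim at 656 to 779.9 CPM.

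The same thresholds in hashtags 2, 4 and 5 gave a comparison that the choice of members had not used, although these cells held almost no Cyp26b1 (in 1.71% of the 175 P3h2-positive cells). Of 6602 tested genes 1522 were called (23.1%), 698 higher (10.6%) and 824 lower (12.5%) on the P3h2-positive side. By length, 515 of the lower calls and 70 of the higher ones were in the shortest of 4 bins (median -0.41), and 32 and 357 in the longest (median 0.29). The P3h2-positive cells held medians of 8805.5, 9330 and 9244 UMIs and the Ccr2-positive cells 13317, 13929 and 17469.5, where hashtags 6, 8 and 9 had 18791, 18999 and 18747.5 against 17392, 17128 and 20000. Malat1 moved as before, with medians of 3.74%, 4.49% and 5.40% against 1.71%, 1.79% and 1.65% of UMIs, and at most 2.5% Malat1 left 33 called genes. Without hashtag 5 there were 723 called genes. The CPM of the sides did not overlap for 34.7% of tested genes.

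Of the 486 genes higher in the first set, 428 were tested in the second, 386 had the same sign and 216 were called in both, which is 50.5% of the calls tested there and 31.5% of the second set's. Of the 291 lower genes, 271 were tested, 262 had the same sign and 205 were called in both, which is 75.6% and 25.2%. In each direction 3 genes were called the opposite way. Among the 54 named genes called in the first set and tested in the second, 39 were called in the same direction and 3 in the opposite one (Itgal, Cxcl9 and Lyz2).

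Named genes of the main groups recurred in the second set. Cadm1 gave 913, 1244 and 939 CPM on the P3h2-positive side and 307, 333 and 200.4 CPM on the Ccr2-positive side of hashtags 2, 4 and 5, a rise of 1.89 ± 0.15 (edgeR adjusted p = 2.08e-15). Adam23 gave 966, 781 and 846 against 176, 189 and 162 CPM and rose by 2.29 ± 0.16, and Cacna1e 356, 351 and 294 against 71.6, 84.7 and 113 CPM and 1.86 ± 0.18. Vim gave 299, 231 and 279 against 616, 757 and 660.4 CPM, a log2 fold change of -1.34 ± 0.15 (edgeR adjusted p = 4.16e-10). Stmn1 gave 92.9, 26.8 and 94.6 against 405, 153 and 303 CPM and -2.01 ± 0.18 (edgeR adjusted p = 4.26e-13). None of these replicates overlapped between the sides. By list, 10 cDC1 identity genes rose and 2 fell of 20 tested, and 16 cell cycle genes fell and Ccnd3 rose of 21. Of 17 ribosome biogenesis genes 11 fell, and of 21 actin and migration genes 20 fell. The medians of these lists were 0.42, -1.04, -0.69 and -0.99, beside 0.020 over all genes. In this set 10.6% of all tested genes were called higher and 12.5% lower, and 31.2% of the shortest length bin were called lower. Of 20 early response and stress genes 8 rose and 4 fell, the latter being the heat shock genes Hspa1a, Hspa1b, Hsp90aa1 and Hspa8. With cells thinned before the rule 0 of 13 tested members of that list rose (median 0.015), beside 31 of 2523 genes called higher. Cycling cells were 13.04%, 11.9% and 15.7% against 52.9%, 14.8% and 32.1%. Without them 3 of 11 tested cell cycle genes fell (median -0.89) and 19 of 21 actin and migration genes, beside 434 of 5279 genes in all. At low Malat1 4 identity genes rose, 1 cell cycle gene and 2 actin and migration genes fell, and edgeR called 0 ribosome biogenesis genes lower and 0 early response genes higher, of 33 called genes in all.

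A test of the difference between the sets (the interaction of side and set, in 1 edgeR fit over all 12 summed libraries) called 41 of 5828 genes (0.704%), 33 with a higher and 8 with a lower log2 fold change in hashtags 6, 8 and 9. With another scaling (relative log expression, RLE) it called 22, 14 higher and 8 lower, and 801 genes had an unadjusted p below 0.05 in the first fit. The median difference over all tested genes was itself above 0, at 0.15 in the first fit and 0.057 with RLE. The excess of higher calls thus depends in part on the scaling. The sets come from the rule and not from the labels, and they differ in depth, so what sets them apart cannot be told from these libraries. The lowest p of the difference was that of AY036118, a non-coding transcript kept among the RNA quality measures, with -1.18 ± 0.11 in the first set and 0.53 ± 0.14 in the second (edgeR adjusted p of the difference = 0.000139). Lars2, another of these measures, had -0.11 ± 0.16 and 1.14 ± 0.16 (edgeR adjusted p of the difference = 0.0483). Their part in the other differences was not tested. Apol7c rose by 4.62 ± 0.34 in the first set and by 1.83 ± 0.33 in the second (edgeR adjusted p of the difference = 0.0302). Dnase1l3 rose by 3.19 ± 0.21 and by 1.51 ± 0.18 (adjusted p = 0.0197). Cxcl2 and Cd274 rose in the first set only, with 0.16 ± 0.35 and -0.18 ± 0.29 in the second (edgeR adjusted p of the differences = 0.00679 and 0.0408). Cxcl9 went from 2.68 ± 0.38 to -0.60 ± 0.21 and Itgal from -1.49 ± 0.30 to 0.57 ± 0.22, both called in opposite directions (edgeR adjusted p of the differences = 0.0233 and 0.0159). In the second set Cxcl9 stood at 374, 214 and 146 against 559, 98.9 and 487 CPM, so that hashtag 4 went the other way than hashtags 2 and 5. On the Ccr2-positive side of hashtags 2 and 5 single cells held 128 of 273 and 118 of 255 of its UMIs.

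**Figure D5:**
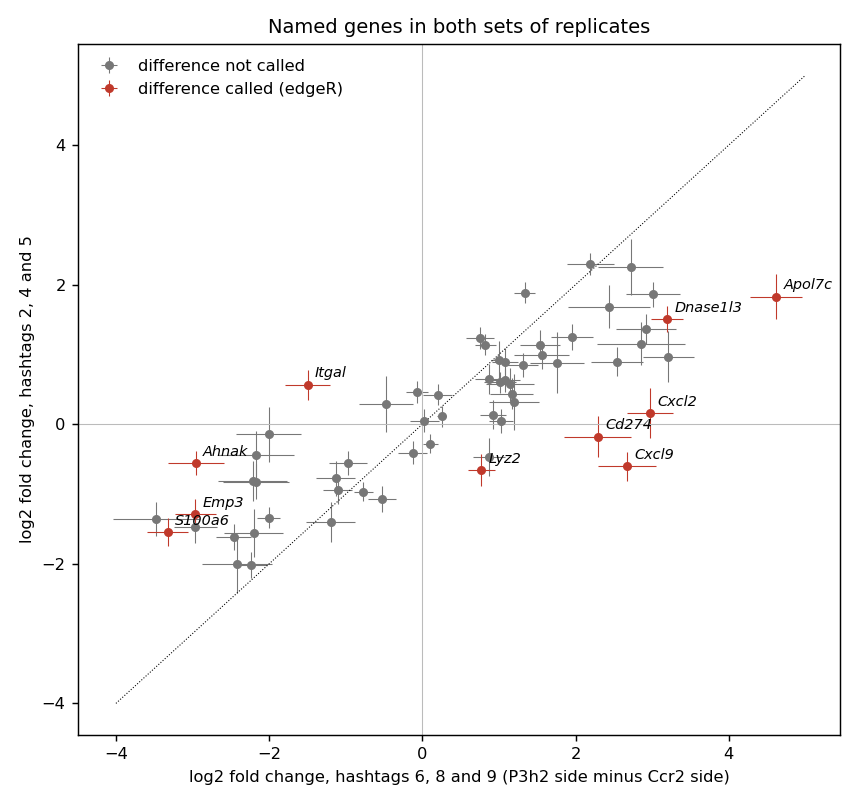
Log2 fold change (P3h2-positive minus Ccr2-positive) of the named genes tested in both sets, hashtags 6, 8 and 9 on the horizontal and 2, 4 and 5 on the vertical axis, with standard errors and the line of equality. Red marks the genes whose difference between the sets was called, among them Apol7c (4.62 and 1.83) and Cxcl9 (2.68 and -0.60).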

How the data were processed

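The deposited matrix holds raw UMI counts for 32289 gene features, made by the authors with Cell Ranger 8.0.1 against mm10, per the submitters' processing notes. The intron and strand settings of the counting are not named in the sources at hand. Hashtags came from the authors' deposited assignment table, of which 16 other columns were not used. Of 19239 barcodes with a single hashtag, 1294 with under 500 genes and 3627 with over 10% mitochondrial UMIs were left out, the groups overlapping. The authors' 4815 multiplets, 1706 blank and 1919 unassigned barcodes were also left out, and no further doublet caller was run. With 1 RNA library, 0 barcodes were shared between libraries.

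Raw counts were summed per side and hashtag and tested with edgeR 4.0.16 (quasi-likelihood, TMM scaling, filterByExpr, Benjamini-Hochberg adjustment, hashtag as block) in R 4.3.3, with limma 3.58.1 beneath it. DESeq2 1.42.0 served as an alternative, and tables were made in Python 3.11.15. The fit was tested on simulated data. Hashtags mark separate biological replicates, per the labels, so that both sides of a hashtag share their source, and this sets the pairing. Deviations from the group means correlated within a hashtag by 0.000423, 0.124 and 0.0433 in hashtags 6, 8 and 9 and by 0.137, 0.221 and 0.244 in hashtags 2, 4 and 5. Intervals cover counting error only.

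Genes were named by a rule: the rule's own genes with Cd24a and Rab7b, 12 cDC1 and homing genes, at most 3 called members per list by absolute log2 fold change, and the 10 highest and 10 lowest other called genes with a mean of at least 20 CPM. Further called list members, and Malat1, Neat1, Gapdh and Ppia, were named after their values were seen. The members, the rule and the lists were chosen with earlier results of these data known. Alternatives were other scaling, filters, gates, thresholds, cell exclusions, the fit without the block and each hashtag left out. The limits on Malat1 and on cell numbers were added after seeing the data.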

Additional observations from a re-analysis of the deposited data

Results flagged for a closer look

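Of the named genes tested in both sets of hashtags, 10 had a difference between the sides that itself differed between hashtags 6, 8 and 9 and hashtags 2, 4 and 5 in edgeR's interaction test. The log2 fold change was higher in hashtags 6, 8 and 9 by 3.34 for Cxcl9, 2.90 for Cxcl2, 2.87 for Apol7c, 2.55 for Cd274, 1.76 for Dnase1l3 and 1.51 for Lyz2. It was lower by -2.32 for Ahnak, -1.98 for Itgal, -1.71 for S100a6 and -1.58 for Emp3. Ahnak, S100a6 and Emp3 were lower on the P3h2-positive side in both sets. The sets are those of the rule, and depth differs between them, so a cause cannot be told apart.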

How the results depend on the processing

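In hashtags 6, 8 and 9 the 777 called genes became 2013 with Cyp26b1 alone, 471 with DESeq2, 477 with a side threshold of 3 UMIs, 427 without cycling cells, 255 with equal cell numbers, 89 with cells thinned before the rule and 62 with at most 2.5% Malat1. Leaving out 1 hashtag gave 353 to 748, the lowest without hashtag 9. Thinning left 21 Ccr2-positive cells. Of the calls, 62.5% were higher, against 73.8% without cycling cells and 76.7% without a filter on low counts, where the median of all genes was 0.53. In hashtags 2, 4 and 5 the 1522 became 383 with DESeq2, 689 without cycling cells, 925 with equal cell numbers, 94 when thinned (33.0% higher against 45.9%) and 33 at low Malat1 (57.6% higher), and leaving out 1 hashtag gave 723 to 1184, the lowest without hashtag 5. Cyp26b1 alone could not be run there, with 1 cell on that side. The difference between the sets went from 41 to 22 genes with RLE scaling. Without the replicate block 1111 and 1151 genes were called in the 2 sets, within 1.5 times. Thinning moved the P3h2-positive shares to 59.9%, 70.4% and 62.0% and the Ccr2-positive shares of hashtags 8 and 9 to 2.52% and 1.10%. Among the named genes, 1208 values kept direction and side of the threshold, 185 lost and 4 gained the call. The 4 that reversed were Klf4 (-0.66), Lyz2 (-0.27) and Chsy3 (-0.67) when thinned and Chsy3 (-0.29) with Cyp26b1 alone; the cause was not tested. The 210226 to 320550 UMIs of the Ccr2-positive sums limit the calls of low genes.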

Other observations

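Among the genes whose difference between the sides differed between the sets, a few outside the naming rule were looked at after their values were seen. Tiparp, an enzyme gene known as a target of the aryl hydrocarbon receptor, rose on the P3h2-positive side of hashtags 6, 8 and 9 by 1.97 ± 0.22 on the log2 scale, and stood at -0.15 ± 0.23 in hashtags 2, 4 and 5 (edgeR adjusted p of the difference = 0.00392). Its levels were 371, 345 and 406 CPM against 125, 124 and 60.4 CPM in the former and 76.8, 56.9 and 88.1 CPM against 88.0, 50.8 and 105 CPM in the latter. Rgs1, a brake on chemokine receptor signalling, rose by 0.92 ± 0.091 in the former and stood at 0.058 ± 0.17 in the latter (edgeR adjusted p of the difference = 0.028). Sema4a, a semaphorin, had log2 fold changes of -1.80 ± 0.40 and 0.42 ± 0.25 (edgeR adjusted p of the difference = 0.0236).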
